A study of Mus musculus with 4 samples.

Results

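The WAVE complex is described here through the 10 genes that encode its subunits in the mouse, taken by symbol from the 43346 genes counted in hearts collected at birth (P0). The genes are Cyfip1, Cyfip2, Nckap1, Nckap1l, Wasf1, Wasf2, Wasf3, Abi1, Abi2 and Brk1. The complex was chosen by the lower counts of Cyfip2 in the knockout hearts in an earlier fit of these same data, and the question is whether a paralog offsets them. The fall of Cyfip2 is therefore a description, with no test, while the other 9 genes were listed for their place in the complex.

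RNA was sequenced from 2 wild type libraries of the ICR strain background and 2 MRTFA/B double knockout libraries of a mixed strain background. All 4 came from P0 hearts, and no treatment is named in the labels. Because background and genotype change together, they cannot be told apart in any difference given here. The labels name neither the alleles, nor a driver of the deletion, nor whether each library is an animal of its own. All p-values therefore measure the spread among these libraries alone, and that spread may be technical.

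The WAVE complex is an assembly of 5 kinds of subunit that switches on the Arp2/3 complex, the machine that starts branched actin filaments at the cell edge. A WASF (WAVE) protein carries the activating tail, and CYFIP and NCKAP1 proteins hold that tail inactive until the small GTPase Rac binds CYFIP. ABI proteins and BRK1 hold the assembly together. MRTFA and MRTFB, in turn, are coactivators of serum response factor (SRF) that sense how much actin is unpolymerised and drive genes of the actin cytoskeleton.

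Between 16175259 and 29460641 reads were counted per library. In all 16009 genes passed the filter on low counts, all 10 subunit genes among them. Counts of the replicates differed by more than sampling noise (chi-square per gene of 16.3 in the wild type pair and 38.3 in the double knockout pair). Mrtfa, a targeted gene, was at 9.06 and 11.1 CPM in wild type hearts against 3.35 and 2.26 in knockout hearts, where CPM are read counts relative to library size, scaled with TMM factors. Mrtfb was at 46.9 and 56.8 CPM in wild type hearts against 46.0 and 49.6 in knockout hearts, and counts over a whole gene need not register a deletion of part of it. The hearts carried the markers of their tissue, with 10 cardiomyocyte markers summing to 46532 to 55545 CPM.

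The coding sequences show how far reads of paralogs can be told apart, which matters because an offset by one paralog is read from counts of both. Cyfip1 and Cyfip2 have coding sequences of 3759 bases each, with 77.8% identity over 3756 aligned bases. Of their 835 mismatches 610 fall on the third base of a codon. Their longest identical run is 24 bases, and it is printed here with 30 bases on either side, with the bases that differ in capitals.
Cyfip1: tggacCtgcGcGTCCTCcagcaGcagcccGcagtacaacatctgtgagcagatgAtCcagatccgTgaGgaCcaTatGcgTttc
Cyfip2: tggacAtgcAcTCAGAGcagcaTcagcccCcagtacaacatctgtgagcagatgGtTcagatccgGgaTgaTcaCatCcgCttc
Both stretches run from coding base 994 to 1077. In mm10 the first lies in exon 12 of Cyfip1 on the plus strand (chr7:55887823-55887906) and the second in exon 11 of Cyfip2 on the minus strand (chr11:46270585-46270668). Even around the run that the paralogs share, 18 of 84 bases differ.

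The ABI pair is the other one whose levels matter below, and it was compared in the same way. Abi1 and Abi2 were 67.3% identical over 1362 aligned coding bases, and their longest identical run was 23 bases, with capitals again on the differing bases.
Abi1: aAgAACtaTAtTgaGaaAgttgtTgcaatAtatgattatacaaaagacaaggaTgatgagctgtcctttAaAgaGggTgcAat
Abi2: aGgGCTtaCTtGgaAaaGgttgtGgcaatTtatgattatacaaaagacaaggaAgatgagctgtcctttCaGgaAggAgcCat
These stretches cross from exon 10 to exon 11 in both genes, on chromosome 2 in Abi1 (minus strand, 22941984 to 22946594) and on chromosome 1 in Abi2 (plus strand, 60470821 to 60476803), and 17 of their 83 bases differ. Nckap1 and Nckap1l were 62.0% identical, and the 3 WASF genes 61.6% to 63.4% identical to each other, with no identical run over 17 bases. No subunit transcript had a stretch of 100 bases or more at 95% identity with that of another subunit. Outside the complex 133 bases of the Abi2 transcript were 95.5% identical to a transcript of Rps6ka2, a kinase gene. Genes that overlap on the opposite strand matched at 100%. These were Nipa2 (1316 bases) and Gm44616 (148 bases) for Cyfip1, and Pdss1 (194 bases) for Abi1. Gm44616 was not among the counted genes.

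Cyfip2 is one of the paralogous genes for the Rac-binding CYFIP subunit, whose proteins also bind the fragile X protein FMRP. The gene (ENSMUSG00000020340) lies on the minus strand of chromosome 11, from 46193850 to 46312859 in mm10. It had 797 and 776 reads in the wild type libraries and 219 and 146 reads in the double knockout libraries. In CPM it was at 28.1 and 31.2 in wild type and at 7.72 and 8.93 in double knockout. Both double knockout libraries thus lay far below both wild type libraries, with no overlap and a close agreement inside each pair. The mean level was 29.6 ± 2.19 CPM for wild type against 8.33 ± 0.855 CPM for double knockout (SD, n = 2 each), which is 28.1% of the wild type mean. In bulk tissue, fewer cells of a type and less RNA per cell cannot be told apart in such a value. The log2 fold change in edgeR was -1.84 (SE 0.15, 95% interval -2.21 to -1.46). Among the 11153 tested genes with a mean of at least 5 CPM, 12 had a more negative fold change.

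Cyfip1 encodes the sister subunit, and it is the gene that could offset the fall. It lies on chromosome 7 (ENSMUSG00000030447, plus strand, 55841745 to 55932602). Its level was 72.5 and 71.6 CPM in wild type hearts against 63.3 and 81.2 in knockout hearts. The double knockout libraries fell on either side of the wild type pair, so the groups overlapped. The means were 72.1 ± 0.596 and 72.3 ± 12.6 CPM (SD, n = 2 each). The log2 fold change was 0.00 (SE 0.14) with a 95% interval of -0.35 to 0.35, and edgeR gave an adjusted p of 0.996. Part of Cyfip1, 1316 of its 11941 exonic bases, is shared with the opposite-strand gene Nipa2, a magnesium transporter gene (77.0 and 70.9 CPM in wild type hearts against 67.0 and 63.7). The strand setting of the counting is unknown here, so reads from that stretch may have been counted for either gene or for neither. The levels per kb of merged exons given below take all 11941 bases of Cyfip1 as countable.

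**Figure D1:**
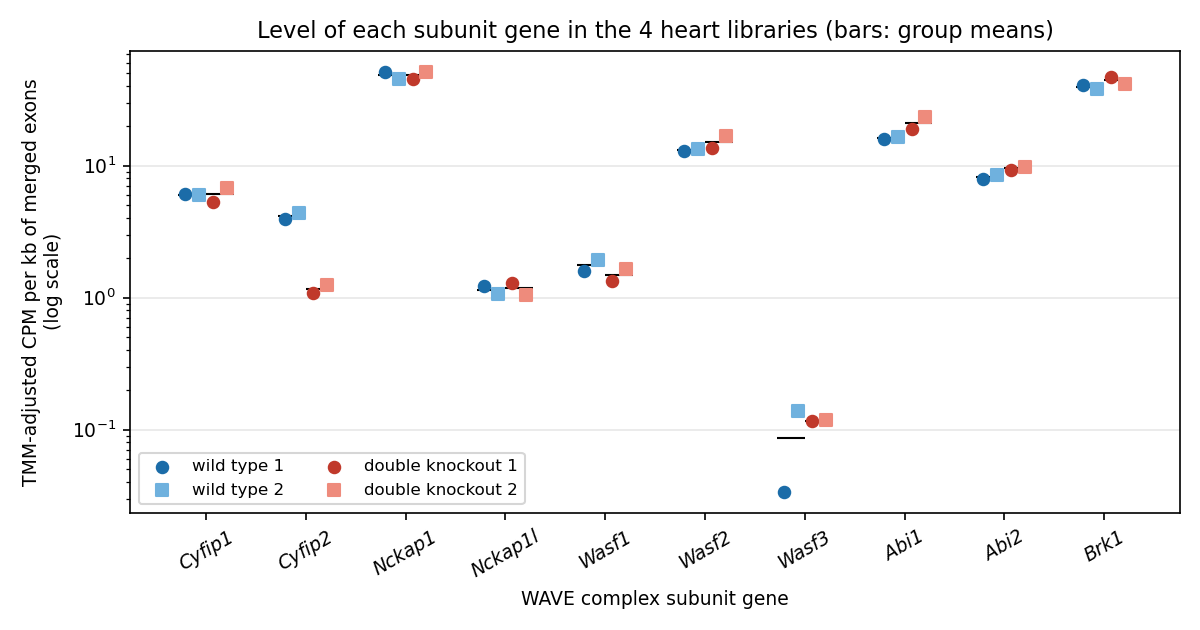
Level of each of the 10 subunit genes in each library, in TMM-adjusted CPM per kb of merged exons on a log scale, with horizontal bars for the group means (n = 2). Cyfip2 is the gene with both double knockout points (1.09 and 1.26) far below both wild type points (3.95 and 4.39), and Wasf3 is the lowest gene.

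The share of reads within the CYFIP pair needs no scaling between libraries; it restates the Cyfip2 counts that chose the complex and is given as a description. Cyfip2 held 27.9% of the 2854 reads of the pair in wild type library 1 (95% Wilson interval 26.3% to 29.6%) and 30.3% of 2559 in library 2 (28.6% to 32.1%). In the double knockout libraries it held 10.9% of 2015 reads (9.58% to 12.3%) and 9.91% of 1473 reads (8.49% to 11.5%). PCR reads without molecular identifiers are not independent molecules, so these intervals cover counting error only.

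Levels of different genes can be added only per length, so CPM were divided by the length of each gene's merged exons in kb. On that scale Cyfip1 was 1.45 times as high as Cyfip2 in wild type hearts and 5.16 times as high in double knockout hearts. The summed level of Cyfip1 and Cyfip2 was 10.03 and 10.4 CPM per kb in wild type and 6.39 and 8.06 CPM per kb in double knockout. The sum was lower in both double knockout libraries, at 70.8% of the wild type mean, and no test was made of a sum over chosen genes. The choice of length matters here, because the merged exons of Cyfip1 (11941 bases) are much longer than its longest annotated transcript (6440 bases), whereas those of Cyfip2 (7103 and 6659 bases) are not. Per kb of the longest transcript the sum was 15.5 and 15.8 in wild type and 10.995 and 13.9 in double knockout, or 79.7%.

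A direct reading of the offset follows from these levels. With merged exons, Cyfip1 would have had to rise by 49.7%, a log2 change of 0.58, to make up for the level that Cyfip2 lost. With the longest transcripts it would have had to rise by 28.6%, a log2 change of 0.36. The upper limit of the 95% interval for Cyfip1, 0.351, lies below 0.582 and narrowly below 0.363. The needed rises rest on the Cyfip2 fall that chose the complex and on the same libraries, and they carry no interval. Setting the limit beside them is a description and not a test of an offset. The edgeR fits with a replicate block were not compared in this way. On merged exons the upper limit for Cyfip1 stayed below the needed rise in all 10 other edgeR settings examined. With the longest transcripts it did not in 4 of them: without composition factors the limit was 0.401, it was 0.556 when the first wild type library was left out and 0.528 when the second was, and it was 0.417 when the first knockout library was.

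**Figure D2:**
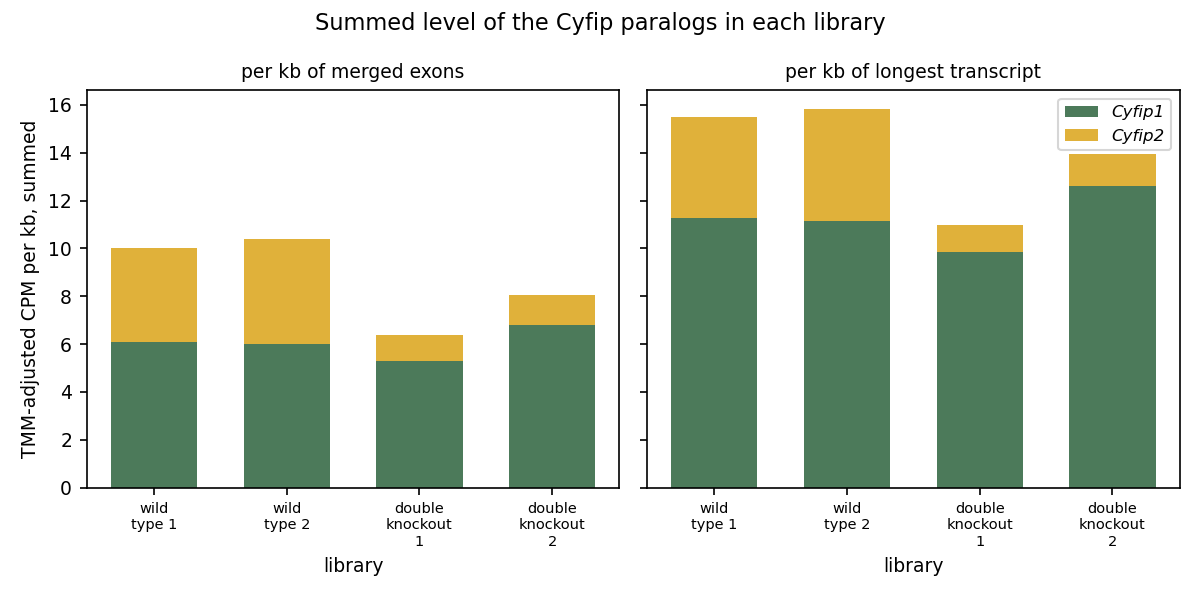
Stacked levels of Cyfip1 and Cyfip2 in each of the 4 libraries, in TMM-adjusted CPM per kb of merged exons (left) and of the longest transcript (right). The Cyfip2 part shrinks in both double knockout libraries while the Cyfip1 part lies below the wild type bars in library 1 and above them in library 2.

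Nckap1 and Nckap1l encode the large scaffold that pairs with CYFIP. Nckap1, the widely expressed form (chromosome 2, 80500512 to 80581380), had 256 and 226 CPM in wild type hearts against 224 and 256 in knockout hearts (log2 fold change -0.01, SE 0.13, interval -0.32 to 0.30, edgeR adjusted p = 0.985). Nckap1l, known as Hem1 and typical of blood cells (chromosome 15, 103453794 to 103498810), had 7.22 and 6.35 CPM in wild type hearts against 7.72 and 6.24 in knockout hearts (0.05, SE 0.21, interval -0.46 to 0.55, edgeR adjusted p = 0.930). The groups overlapped for both genes. Leukocyte markers, which share cells with Nckap1l, summed to 68.0 and 68.2 CPM in wild type hearts against 84.6 and 60.1 in knockout hearts over 14 genes. Double knockout library 1 was above library 2 in this sum and in Nckap1l, while wild type library 1 was above library 2 in Nckap1l alone. The part of leukocytes in the Nckap1l level was not tested. Per length the summed Nckap1 and Nckap1l level in double knockout was 99.6% of wild type, and Nckap1l gave 2.38% to 3.33% of the reads of the pair.

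The WASF genes encode the subunit that activates Arp2/3. Wasf2 (chromosome 4, 133130505 to 133199756) is their main form in these hearts, with 93.1% to 95.2% of the reads of the 3 genes. It was at 81.5 and 84.0 CPM in wild type hearts against 84.8 and 105 in knockout hearts, with a fitted log2 fold change of 0.20 (SE 0.13, interval -0.13 to 0.53, edgeR adjusted p = 0.491). Both double knockout libraries were above both wild type libraries, library 1 by a small margin. Wasf1, best known from brain (chromosome 10, 40883475 to 40938570), had 4.55 and 5.55 CPM in wild type hearts against 3.81 and 4.71 in knockout hearts (-0.25, SE 0.23, edgeR adjusted p = 0.623), and the groups overlapped. Wasf3 (chromosome 5, 146384985 to 146473615) was near the limit of detection, with 5 and 18 reads in the wild type libraries and 17 and 10 in the knockout libraries, where 3 reads are worth 0.106 to 0.184 CPM. A difference in Wasf3 was not detectable at this depth (log2 fold change interval -1.16 to 2.08). Per length the summed WASF level in double knockout was 111% of wild type.

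Abi1 (chromosome 2, 22940073 to 23040241) and Abi2 (chromosome 1, 60409619 to 60481158) encode the adaptor that links the complex to Abl kinases and the membrane. Abi1 was at 63.7 and 67.0 CPM in wild type hearts against 76.3 and 94.5 in knockout hearts, and Abi2 was at 68.3 and 72.2 CPM in wild type hearts against 79.2 and 83.9 in knockout hearts. For both genes each double knockout library lay above each wild type library. The log2 fold changes were 0.38 (SE 0.13, interval 0.06 to 0.71) for Abi1 and 0.22 (SE 0.10, interval -0.04 to 0.47) for Abi2. Neither passed edgeR over all genes, with adjusted p = 0.238 and 0.352. Without double knockout library 1 the edgeR adjusted p of Abi1 was 0.00609, at a log2 fold change of 0.53, and without library 2 it was 0.266, at 0.22. Each of these fits has 1 knockout library, which is assumed to vary as the wild type pair does, and the first called 1468 genes higher and 1327 lower over all genes. The summed ABI level per length was 23.8 and 25.1 CPM per kb in wild type and 28.2 and 33.2 CPM per kb in double knockout, or 126% of the wild type mean. Abi1 shares 194 of its 4032 exonic bases with the opposite-strand gene Pdss1, which was lower in double knockout at 17.2 and 19.3 CPM against 37.1 and 25.8 CPM. The remaining ABI paralog, Abi3, was low at 2.04 and 1.85 CPM in wild type hearts against 1.66 and 2.51 in knockout hearts.

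Brk1 (chromosome 6, 113604772 to 113616951) encodes the smallest subunit, a short helical protein with no paralog on the list. It was at 44.9 and 42.1 CPM in wild type hearts against 51.2 and 45.8 in knockout hearts (log2 fold change 0.16, SE 0.12, interval -0.13 to 0.45, edgeR adjusted p = 0.535). Both double knockout libraries were above the wild type pair.

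**Figure D3:**
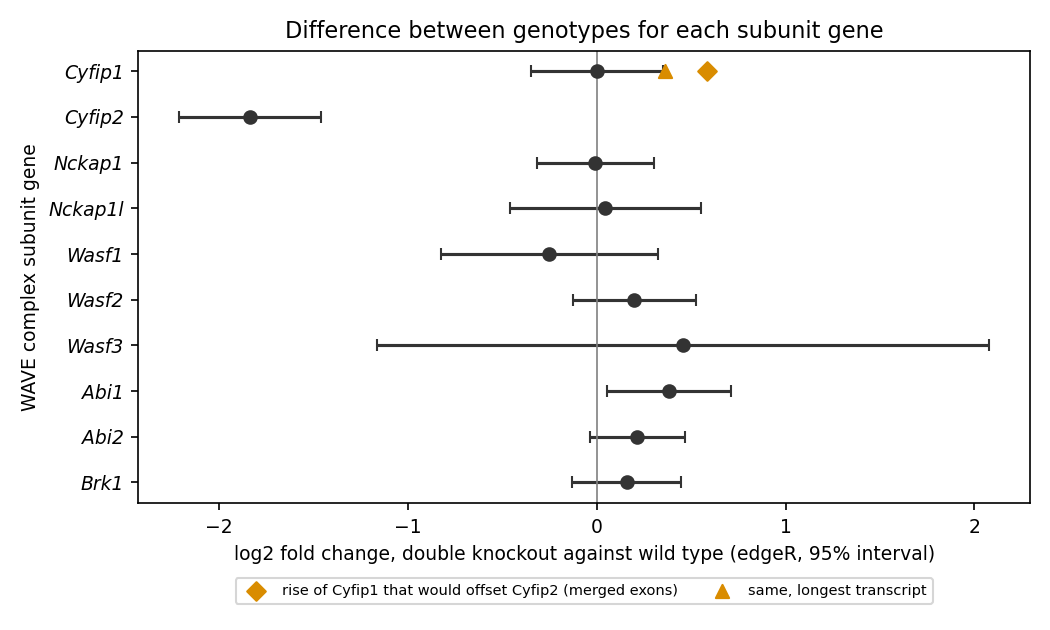
Log2 fold change of each subunit gene, double knockout against wild type, with the 95% interval from edgeR (n = 2 per group). Cyfip2 lies at -1.84 and the other 9 genes between -0.25 and 0.46, and the orange marks show the rise of Cyfip1 that would make up for Cyfip2 (0.58 with merged exons, 0.36 with the longest transcript).

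Counted together, 1 of the 10 genes passed the edgeR threshold of an adjusted p under 0.05, the Cyfip2 that the choice was based on, and 0 of the other 9 did. Over all tested genes 0.075% passed, 0.0625% lower and 0.0125% higher. DESeq2, which gave Wasf3 no adjusted p, also called Cyfip2 lower and no other subunit. Of all the genes it adjusted, DESeq2 called 3.93%, 1.86% lower and 2.08% higher. At an unadjusted edgeR p under 0.05 there were 2 of the 10, Cyfip2 lower and Abi1 higher, against 17.3% of all genes, 8.63% lower and 8.7% higher. Groups did not overlap in 5 of the 10, with Cyfip2 lower and Wasf2, Abi1, Abi2 and Brk1 higher, where 25.2% of all genes were lower in this way and 25.8% higher. The median log2 fold change over the 10 genes was 0.10, beside 0.01 over all tested genes.

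The order of levels per kb of merged exons ran from Nckap1 at the top to Wasf3. Nckap1 was at 45.1 to 51.5 CPM per kb over the 4 libraries and Brk1 at 38.4 to 46.8, and these ranges overlap. Abi1 (15.8 to 23.4) and Wasf2 (13.03 to 16.8) followed and overlap too. Abi2 came next at 7.99 to 9.82 and Cyfip1 at 5.30 to 6.80, each clear of its neighbours on this length. The place of Cyfip1 depends on the length used, as its merged exons (11941 bases) are much longer than its longest transcript (6440 bases). Cyfip2 stood at 3.95 to 4.39 in wild type, above Wasf1 (1.33 to 1.94). In double knockout it stood at 1.09 to 1.26, within the range of Nckap1l (1.05 to 1.30) and below Wasf1. Wasf3 was last at 0.0339 to 0.139.

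Genes that act with the complex were taken from 5 lists, and in each list 0 members passed the edgeR threshold in either direction, and 0 in DESeq2. Of 20 upstream GTPases and their exchange factors 19 were tested, with a median log2 fold change of -0.03, and at an unadjusted edgeR p under 0.05 there were 2 lower and 0 higher, where 8.63% of all genes were lower and 8.7% higher. Cdc42, a small GTPase of cell polarity, was at 454 and 437 CPM in wild type hearts against 417 and 402 in knockout hearts. Arf1, a GTPase that can activate the complex together with Rac, was at 371 and 341 CPM in wild type hearts against 324 and 289 in knockout hearts. The Rac exchange factor Tiam2 (log2 fold change -0.55, SE 0.18) and the GTPase Arf6 (-0.35, SE 0.14) had the smallest unadjusted p of this list, with edgeR adjusted p = 0.222 and 0.286. These 4 genes lay lower in both knockout libraries than in either wild type library. In the list 7 of 19 lay lower without overlap and 2 higher, where 25.2% of all genes lay lower and 25.8% higher. Rac3 had too few counts to be tested.

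The 18 partners at the membrane ran from -0.48 to 1.73 in log2 fold change with a median of 0.02, and 9 of them were negative. At the unadjusted p 3 were higher and 1 lower (8.7% and 8.63% of all genes). Raph1 (lamellipodin), which recruits the complex through ABI, was at 193 and 194 CPM in wild type hearts against 241 and 336 in knockout hearts. Its log2 fold change was 0.58 (SE 0.17; edgeR adjusted p = 0.198). Vasp, an actin filament elongation factor, was at 57.2 and 52.7 CPM in wild type hearts against 37.7 and 41.3 in knockout hearts (-0.48, SE 0.12; edgeR adjusted p = 0.163). Neither gene's groups overlapped, and the genes differed in opposite directions. Pacsin2, a membrane-bending protein, was at 139 and 122 CPM in wild type hearts against 98.6 and 135 in knockout hearts.

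The 6 RNA-binding partners of CYFIP had a median of 0.15, with 1 higher and 1 lower at the unadjusted p (8.7% and 8.63% of all genes). Fxr1, the fragile X relative enriched in muscle, was at 343 and 333.5 CPM in wild type hearts against 384 and 471 in knockout hearts (log2 fold change 0.34, SE 0.14). Eif4e, the cap-binding factor that CYFIP1 can hold, was at 76.8 and 64.0 CPM in wild type hearts against 54.9 and 52.6 in knockout hearts (-0.39, SE 0.13). Their edgeR adjusted p were 0.283 and 0.219. Fxr2 was at 87.7 and 87.4 CPM in wild type hearts against 85.1 and 102 in knockout hearts.

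Among the 14 other nucleation promoting factors 11 had a positive fold change and 3 a negative one, where 48.7% of all genes had a negative one. The median was 0.17, and 2 were higher and 0 lower at the unadjusted p (8.7% and 8.63% of all genes). Cttn (cortactin, which stabilises branches) was at 147 and 142 CPM in wild type hearts against 182 and 189 in knockout hearts (0.36, SE 0.10; edgeR adjusted p = 0.189). Jmy was at 115 and 120 CPM in wild type hearts against 143 and 180 in knockout hearts (0.46, SE 0.14; edgeR adjusted p = 0.204). Washc5, of the endosomal WASH complex, was at 85.3 and 86.8 CPM in wild type hearts against 81.3 and 106 in knockout hearts. The 10 subunits of the Arp2/3 complex, the target of WAVE, ran from -0.27 to 0.16 with a median of -0.03 and 0 genes at the unadjusted p. Arpc2 was at 175 and 165 CPM in wild type hearts against 160 and 169 in knockout hearts, and Arpc5 at 107 and 90.7 CPM against 91.1 and 112. Actr3b and Actr3 had the smallest unadjusted p, with log2 fold changes of -0.27 and -0.18 (edgeR adjusted p = 0.391 and 0.514).

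**Figure D4:**
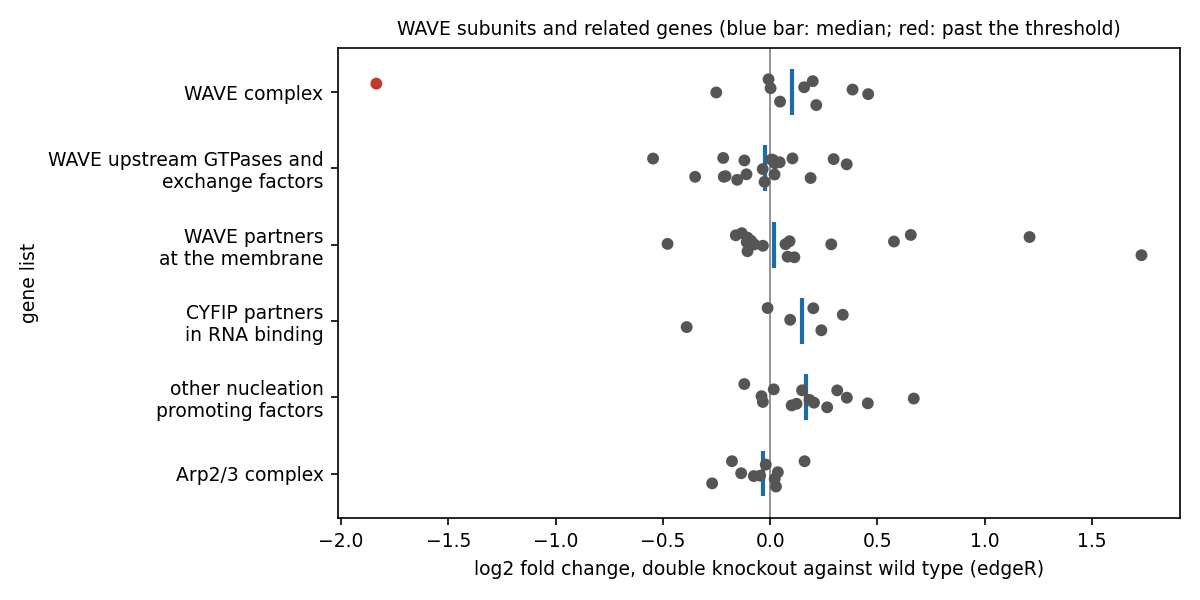
Log2 fold change (edgeR, double knockout against wild type) of each tested gene in the WAVE complex and 5 related lists, with the list median as a blue bar and genes past the threshold in red. Cyfip2 at -1.84 is the single red point and stands apart from the other subunits, and the list medians lie between -0.03 and 0.17.

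Other cell types in the heart were followed by their markers. Neuron markers summed to 14.6 and 18.003 CPM in wild type hearts against 12.8 and 11.8 in knockout hearts over 12 genes. All 4 that were tested had a negative fold change, where 48.7% of all genes did, and they ran from -0.96 to -0.07 with a median of -0.27. The lowest was Gap43 (edgeR adjusted p = 0.153), and 1 of the 4 lay lower without overlap, where 25.2% of all genes did. Markers of T and B lymphocytes were low, at 2.08 and 2.21 CPM in wild type hearts against 2.19 and 1.41 in knockout hearts over 9 genes, 2 of them tested. Cardiomyocyte markers summed to 55545 and 54862 CPM in wild type hearts against 51682 and 46532 in knockout hearts. Of these 10 genes, 8 had a negative fold change. Without overlap 7 lay lower and 1 higher, and the list median was -0.17. Of the 6 smooth muscle markers 0 were called lower in edgeR and 3 in DESeq2 (0.0625% and 1.86% of all genes). All 6 had a negative fold change, and all 6 lay lower without overlap, where 25.2% of all genes did. At an unadjusted edgeR p under 0.05, 4 were lower (8.63% of all genes). The 6 markers summed to 3238 and 1749 CPM in wild type hearts against 712 and 621 in knockout hearts. Acta2 alone was at 2962 and 1468 CPM in wild type hearts against 535 and 439 in knockout hearts, so it dominated the sum. The list median log2 fold change was -0.65, beside -2.18 for Acta2. No gene of these lists was at 0 in all 4 libraries. Neuron, cardiomyocyte and smooth muscle sums were lower in both double knockout libraries, as Cyfip2 was, and their part in its lower level was not tested. In bulk tissue a lower sum cannot tell fewer cells from less RNA per cell. MRTFs drive genes of the actin cytoskeleton, so the smooth muscle sum is not a measure of cell number in these hearts.

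The surroundings of Cyfip2 on chromosome 11 were examined because strain background differs between the groups. Of 37 genes annotated within 500 kb, 10 were tested, and their log2 fold changes ran from -0.58 to 0.72 with a median of -0.02. Adam19, a membrane protease 46507 bases away, was at 167 and 128 CPM in wild type hearts against 96.3 and 101 in knockout hearts, and was the single neighbour lower without overlap. Thg1l, a tRNA guanylyltransferase gene, was at 11.4 and 11.5 CPM in wild type hearts against 16.8 and 16.0 in knockout hearts (log2 fold change 0.52). Med7, Havcr2 and the pseudogene Gm12174 also lay higher without overlap. Clint1, Lsm11, Gm12166, Nipal4 and Gm12168 had overlapping groups. None of the 10 passed the edgeR threshold, and 2, Adam19 and Thg1l, had an unadjusted p under 0.05 (0.075% and 17.3% of all genes). Without overlap 1 lay lower and 4 higher, where 25.2% and 25.8% of all genes did. Fndc9, which lies in an intron of Cyfip2 on the other strand, had 20 reads in all 4 libraries together and was not tested.

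**Figure D5:**
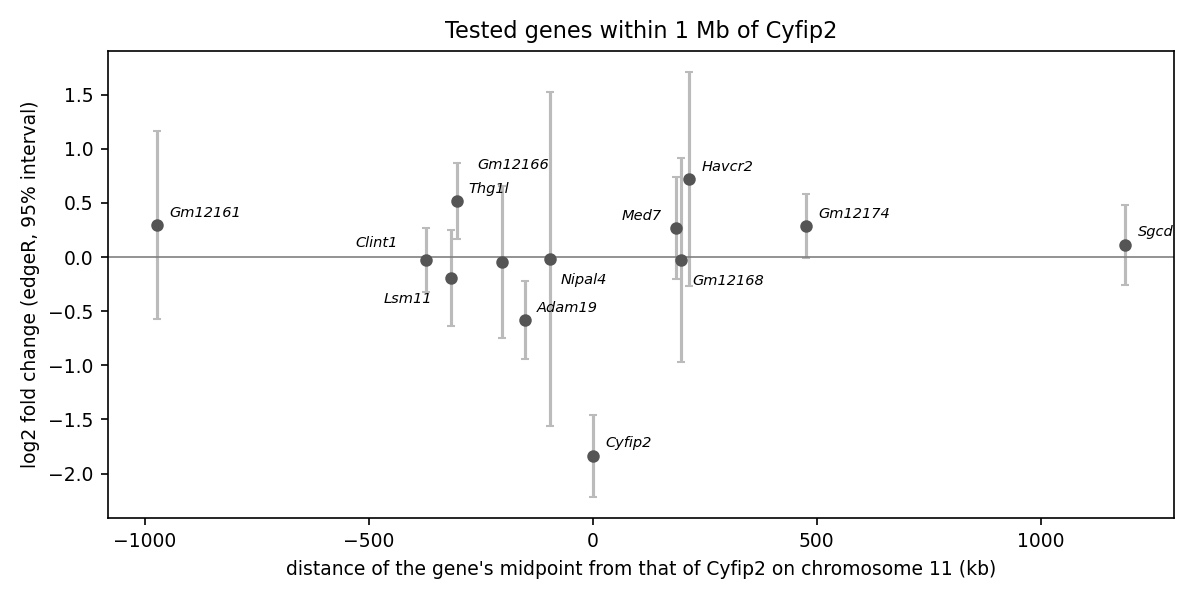
Log2 fold change with 95% interval (edgeR) of the tested genes within 1 Mb of Cyfip2, by distance of the gene midpoints in kb. Cyfip2 at -1.84 lies below its tested neighbours, which run from -0.58 (Adam19) to 0.72 (Havcr2).

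Promoters were searched for the CArG box, the site that SRF binds. RefSeq windows of the GRCm38.p6 assembly, from 250 bases before to 50 bases after a start, were at hand for 6 of the 10 genes, Cyfip2, Wasf1, Wasf2, Wasf3, Abi1 and Brk1. The Cyfip2 window (46312309 to 46312608, minus strand) lies wholly inside the annotated gene, whose first base is 46312859. Sequence before that annotated start of Cyfip2 was not searched. The consensus, which reads the same on both strands, occurred in 0 of the 7 windows of these genes and in 1.63% of all 32851 windows. It was found in the windows of Srf and of the cardiac actin gene Actc1. A window without a match says only that these letters are absent from it.

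Genes with a pattern most like that of Cyfip2 over the 4 libraries were found by the Euclidean distance between centred log2(CPM + 0.5) values, among 11152 genes with a mean of at least 5 CPM. The nearest was Ccn3, a matricellular protein gene, at 41.5 and 43.3 CPM in wild type hearts against 11.1 and 17.3 in knockout hearts (distance 0.359). Lrtm1 followed at 44.8 and 44.7 CPM in wild type hearts against 12.6 and 10.3 in knockout hearts (distance 0.390). The third was Mrtfa itself (0.494), then Fam81a at 64.95 and 49.6 CPM in wild type hearts against 14.9 and 22.6 in knockout hearts (0.498). The fifth was Ublcp1, a phosphatase gene that also lies on chromosome 11, 1.72 Mb from Cyfip2, at 24.5 and 23.2 CPM in wild type hearts against 9.98 and 8.99 in knockout hearts (0.564). With 4 libraries in 2 groups such a likeness amounts to a similar fall in both double knockout libraries.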

How the data were processed

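Reads of 2 wild type and 2 double knockout P0 heart libraries were analysed from raw counts per gene, which the authors made with HTSeq on mm10 and deposited, per the submitters' processing notes; these also name DESeq 1.10.1. Their aligner, annotation release and strand setting are not stated in the sources used here. Symbols, positions and lengths came from GENCODE M21 of the same build, which named 42462 of 43346 identifiers. All 4 libraries entered one fit in edgeR 4.0.16 (R 4.3.3; filterByExpr, TMM factors, robust quasi-likelihood test), with Benjamini-Hochberg adjustment over all 16009 tested genes and a threshold of 0.05. Intervals are 95%, from the fitted SE. Scripts were tested on simulated data. DESeq2 1.42.0, limma-voom (limma 3.58.1), other scalings and filters, a replicate block and leaving out each library were alternatives. Coding sequences were aligned with Biopython 1.88, and transcripts compared with BLAST 2.17.0.

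The members, gene lists and tests were chosen with earlier results of these data known. The text names the 10 members, Abi3, the targeted genes, genes within 500 kb of Cyfip2, the 5 genes most like Cyfip2 and, from each related list, members past the threshold or otherwise the 2 with the highest level per kb and the 2 with the smallest p; the same rule gave marker genes, of which 2 are named. Nipa2, Gm44616, Pdss1 and Rps6ka2 were named for shared sequence. Marker lists not described in the text are Schwann cell (summed CPM 42.8 to 48.5), endothelial (2045 to 2224), fibroblast (3455 to 4454) and erythroid (463 to 806).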

Additional observations from a re-analysis of the deposited data

How the results depend on the processing

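The log2 fold change of Cyfip2 stayed between -1.94 and -1.73 over 14 alternatives; since it chose the complex, its calls support nothing. Under the stricter filter, a replicate block, a crossed replicate block, or without wild type library 1 or 2, 0 subunits were lower. Cyfip1 kept within -0.19 and 0.17 and passed in 0; its sign differed from the main one in 9. Without double knockout library 1, 1 subunit (Abi1) was called higher, in a fit with 1 knockout library that called 1468 genes higher; without library 2 its adjusted p was 0.266. The sums of paralogs moved by less than the spread between replicates under each scaling and with the longest transcripts. Leaving a library out cannot be judged by that spread, because with 2 libraries per group the replicate difference itself sets the shift. The log2 ratio of the summed Cyfip1 and Cyfip2 level was -0.499 with every library. It became -0.343 on dropping the first knockout library and -0.677 on dropping the second. Dropping the second also took the WASF ratio from 0.156 to -0.009. The Nckap1 and Nckap1l ratio, at -0.006 with every library, changed sign in some omissions. Same-numbered libraries of the genotypes deviated with r = -0.10, and with 2 libraries per group both pairs give this same value. That value gives no sign of a pairing, but it cannot decide whether the numbers mark a shared batch. Over all genes the replicate block left 2 lower and 0 higher, against 10 and 2 in the main fit. The crossed block, added after seeing the data, left 3 and 0. Genes lower were 785 with no filter and 251 in DESeq2, and 2 to 1327 with 1 library left out. Genes higher were 729 with no filter, 281 in DESeq2, 0 to 1468 with 1 library left out, and 1 with RLE factors, upper-quartile factors, the stricter filter, no robust estimation or limma-voom. Without double knockout library 1 or 2 the lower genes numbered 1327 and 738. In the related lists 1 gene was lower and 3 were higher with no filter, and with 1 library left out 0 to 2 were lower and 0 to 11 higher, against 0 and 0. Wasf3 had too few counts for the stricter filter. Depth limits Wasf3, Wasf1 and Nckap1l most.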
